A study of Caenorhabditis elegans with 2 samples.

Results

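xol-1 and 9 genes of the dosage compensation machinery of Caenorhabditis elegans were examined in a ChIP-seq experiment on the homeodomain protein CEH-32, a member of the sine oculis family. The 10 genes are xol-1, sdc-1 and sdc-2 on the X chromosome, and sdc-3, dpy-21, dpy-26, dpy-27, dpy-28, dpy-30 and mix-1 on autosomes, of 19973 protein-coding genes of the nuclear genome. They were chosen by gene name with the peak signals of these lists already known, in particular that of the peak upstream of xol-1. Counts and signals of the 10 genes are therefore given as a description, with no test.

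All worms carried the same genotype. They were of strain OP516 (unc-119(tm4063) III; wgIs516), which stably expresses CEH-32 with GFP and FLAG at its C-terminus, and were hermaphrodite L4 larvae collected 52 h after synchronization from starved L1 larvae. Whole worms were used, chromatin was fragmented by sonication, and the tagged protein was pulled down through its GFP, in 2 biological replicates that form the only group. The tagged protein comes from a transgene and the worms were not dissected, so the peaks do not say in which tissue the protein was bound. No males were included. The labels name a control experiment, which was not analysed here.

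In C. elegans, hermaphrodites have a pair of X chromosomes and males have one. XOL-1 is the switch that sets sex and dosage compensation: it is active in male embryos, where it represses the SDC genes, and is kept off in hermaphrodite embryos by X-encoded signal elements. In hermaphrodites SDC-2, with SDC-3 and SDC-1, brings a condensin complex to recruitment sites on X, and transcription from both X chromosomes is lowered. The recruitment sites share a sequence motif that is enriched on X and contains the letters GCGCAGGG, called the recruitment core here.

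Peaks came from 4 lists on build ce11: an optimal list that passed the authors' reproducibility threshold, with 388 nuclear peaks, a relaxed list of 10485 peaks of the pooled replicates, and a relaxed list of each replicate, with 14069 peaks in replicate 1 and 14710 in replicate 2. The relaxed lists hold background regions by design. The signal of a peak is the authors' value, on a scale particular to each list, with a median of 33.5 in the pooled relaxed list, 16.2 in replicate 1 and 20.7 in replicate 2. Read depth is unknown from these lists. The weakest nuclear optimal peak had a pooled signal of 81.6, and the strongest nuclear peak left out of the optimal list had 81.5. A peak was linked to a gene when its summit lay in the gene or within 5 kb of one of its transcript starts, and it was called found in a replicate when that replicate had a summit within 100 bp. By this measure 356 of 388 nuclear optimal peaks (91.8%) were found in both replicates, against 2534 of 10461 nuclear pooled relaxed peaks (24.2%).

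The sequences under the summits that the results turn on are shown first, as 101 bp of the forward strand centred on the summit, 5′ to 3′, from the RefSeq genome of build WBcel235 (ce11). They are both summits upstream of xol-1 (chrX:8036363-8036463 and chrX:8036568-8036668), those upstream of dpy-28 (chrIII:10759193-10759293), in mix-1 (chrII:10840251-10840351), upstream of sdc-1 (chrX:16271354-16271454) and upstream of dpy-21 (chrV:17951414-17951514). Capitals mark the recruitment core on either strand in xol-1, GGTTCGA in mix-1 and GAGAGA in sdc-1 and dpy-21.
xol-1 upstream, first summit: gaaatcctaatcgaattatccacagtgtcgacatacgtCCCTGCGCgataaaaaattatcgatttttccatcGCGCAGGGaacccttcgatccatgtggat
xol-1 upstream, second summit: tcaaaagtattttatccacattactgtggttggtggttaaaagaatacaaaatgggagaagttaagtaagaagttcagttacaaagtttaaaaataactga
dpy-28 upstream: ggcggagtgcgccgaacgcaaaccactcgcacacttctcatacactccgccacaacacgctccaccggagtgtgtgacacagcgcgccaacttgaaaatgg
mix-1 intron: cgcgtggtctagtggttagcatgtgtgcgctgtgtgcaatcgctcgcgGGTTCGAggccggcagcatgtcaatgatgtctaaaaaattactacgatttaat
sdc-1 upstream: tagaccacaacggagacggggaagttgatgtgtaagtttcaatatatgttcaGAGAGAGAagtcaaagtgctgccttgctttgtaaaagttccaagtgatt
dpy-21 upstream: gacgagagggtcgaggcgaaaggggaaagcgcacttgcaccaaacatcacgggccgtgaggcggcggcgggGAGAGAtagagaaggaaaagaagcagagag

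The X chromosome carried other optimal peaks with the recruitment core, and the 3 strongest are shown for comparison with xol-1. They had signals of 413 (chrX:4209233-4209333), 391 (chrX:11094134-11094234) and 362 (chrX:14525841-14525941). Capitals mark the core, which stands on the reverse strand in each.
X peak of signal 413: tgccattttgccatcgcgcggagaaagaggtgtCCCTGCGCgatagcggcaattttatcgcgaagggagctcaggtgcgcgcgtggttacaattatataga
X peak of signal 391: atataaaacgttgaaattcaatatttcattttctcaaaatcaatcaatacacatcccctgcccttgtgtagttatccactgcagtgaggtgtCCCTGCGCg
X peak of signal 362: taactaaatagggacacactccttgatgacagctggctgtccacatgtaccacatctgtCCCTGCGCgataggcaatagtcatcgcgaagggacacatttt

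Peaks were strong at 3 of the 10 genes. xol-1, dpy-28 and mix-1 were linked to an optimal peak, against 842 of 19973 protein-coding genes (4.22%). Of the X-linked genes of the set 1 of 3 was linked, against 6.96% of X-linked genes, and of the autosomal ones 2 of 7, against 3.78% of autosomal genes. The peak of dpy-28 lay at the start of another gene and that of mix-1 beside a small RNA gene, as described below, and the xol-1 peaks lay over 4 kb from that gene. The same 3 genes were linked when the strongest peaks of either replicate, as many as in the optimal list, replaced that list. No share over all genes is given for that replacement. When a summit had to lie in the gene or within 2 kb of a start, only mix-1 stayed linked, because its summit lies inside the gene, against 2.32% of all genes. With each peak given only to the nearest protein-coding start within 5 kb, only xol-1 stayed linked, against 1.7% of all genes.

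**Figure D1:**
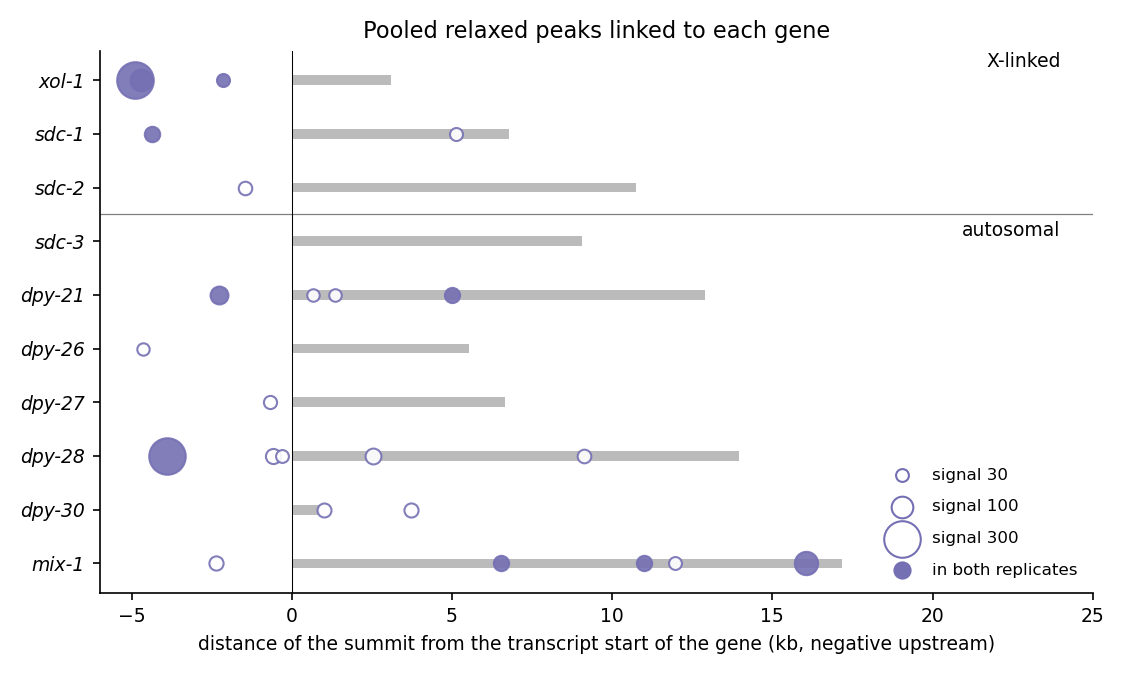
Pooled relaxed peaks linked to each of the 10 genes, by distance of the summit from the transcript start of the gene in kb (negative upstream); grey bars are gene bodies, circle area grows with the authors' signal, and filled circles were found in both replicates. The 2 large circles are the peaks 4900 bp upstream of xol-1 and 3888 bp upstream of dpy-28.

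In the relaxed lists nearly every gene of the set had a peak, as did most genes of the genome. The pooled relaxed list linked 9 of the 10 genes, against 56.5% of all genes: 3 of 3 X-linked genes, against 64.7% of X-linked genes, and 6 of 7 autosomal genes, against 55.2% of autosomal genes. The missing gene was sdc-3. Replicate 1 linked all 10 genes, against 69.3% of all genes, and replicate 2 linked 9, against 67.4%, with dpy-26 missing. Asking for a pooled summit found in both replicates left 5 genes, xol-1, sdc-1, dpy-21, dpy-28 and mix-1, against 21.8% of all genes.

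These links came from 24 pooled relaxed peaks, 6 at the X-linked genes and 18 at the autosomal ones. The median density in the linking window was 0.185 peaks per kb for the 10 genes and 0.0967 for all genes. The windows differ in length, with a median of 12916 bp for the 10 genes and 10001 bp for all genes. Of the 24 summits, 10 were found in both replicates, beside 24.2% of all nuclear pooled relaxed peaks. Of the same 24, 4 lay within 1 kb of a start of the gene they were linked to. For 12 the nearest protein-coding start was that of the gene. By position, 9 summits lay in introns, 7 between genes, 6 in coding exons, 1 in a 3′ UTR and 1 in a noncoding gene. No shares over all relaxed peaks are given for these distances and positions, so the counts only describe the 24 summits.

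**Figure D2:**
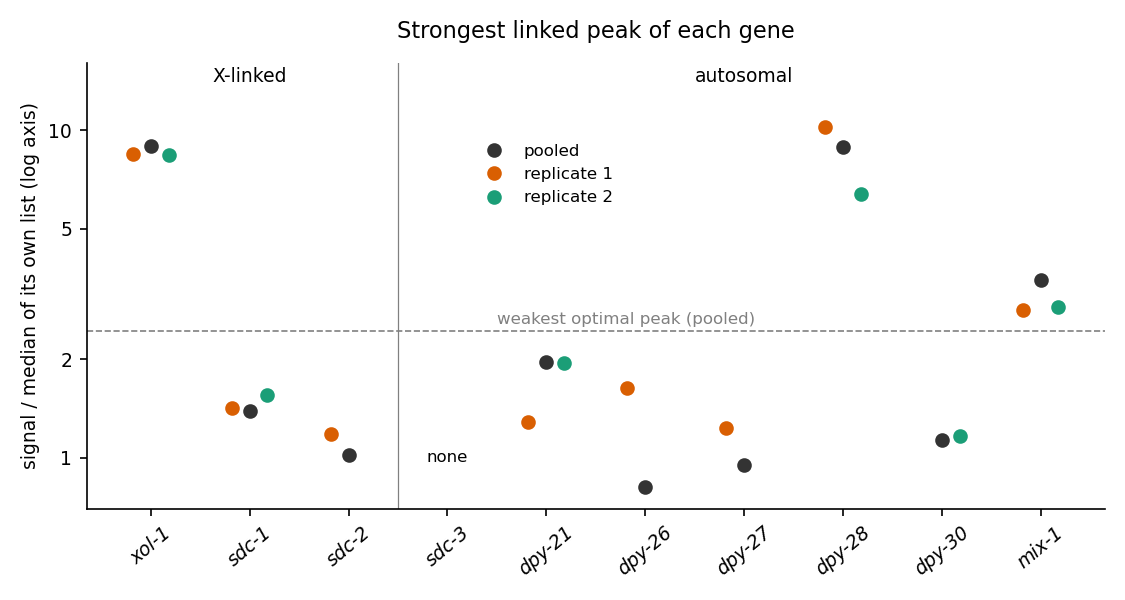
Authors' signal of the strongest linked pooled relaxed peak of each gene divided by the median of its own list, on a log axis, for the pooled list and for the matched summit of each replicate; no point is drawn where no summit matched. xol-1 and dpy-28 stand near 9 times the pooled median, mix-1 (3.48) lies between them and the weakest optimal peak, and the pooled points of the others lie below that line.

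xol-1 (WBGene00006962, chrX:8041313-8044409, forward strand), the sex determination and dosage compensation switch, had the strongest peak of the set. The peak spanned chrX:8036301-8036576, between genes, with its summit 4900 bp upstream of the xol-1 start. The pooled signal was 301, and the replicates gave 137 (replicate 1) and 174 (replicate 2). Divided by the median of each list these are 8.97, 8.43 and 8.4, so by this ratio it stood about equally high in both replicates. Among nuclear peaks it ranked 12th in the pooled list (8th on X), 18th in replicate 1 and 5th in replicate 2. Its summits in replicate 1 and replicate 2 lay 3 and 11 bp from the pooled one. Of 2731 X-linked genes, 15 (0.549%), xol-1 included, had a linked peak at least as strong.

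A second optimal peak overlapped the first, with its summit 4695 bp upstream of xol-1. It had a pooled signal of 101, with 69.6 in replicate 1 and 43.5 in replicate 2, which is 4.29 and 2.1 times the replicate medians. Unlike the first summit, the second was thus relatively lower in replicate 2. Its summit lay 56 bp from the noncoding RNA gene C18A11.13 and 67 bp from the tRNA gene WBGene00022939, which overlap each other. That tRNA gene is 272 bp from the first summit. A second tRNA gene, WBGene00022938, also lies between the peaks and xol-1.

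The other peaks around xol-1 were weak. Another pooled peak 2151 bp upstream had a signal of 31.2, below the list median, and was found in both replicates at 15.2 and 18.7. At the promoter itself only replicate 1 had a peak, 8 bp upstream of the start, with a signal of 19.3, and replicate 2 had one 309 bp inside the gene at 18.2. Replicate 1 also had a peak of 17.7 in a xol-1 coding exon, 2166 bp from a start, and one of 20.3 past the gene, at 3329 bp. None of these single-replicate peaks was matched by a pooled peak. The protein-coding neighbour on the other side, C34D10.1, starts 6934 bp from the first summit, so xol-1 was the only protein-coding gene that the optimal pair was linked to. The next optimal summits on X were 84.6 kb and 332 kb away, with signals of 116 and 88.3. The nearest relaxed summit outside the linking distance lay 7436 bp from a xol-1 start, with a signal of 30.8, while 4900 bp was just inside the limit.

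**Figure D3:**
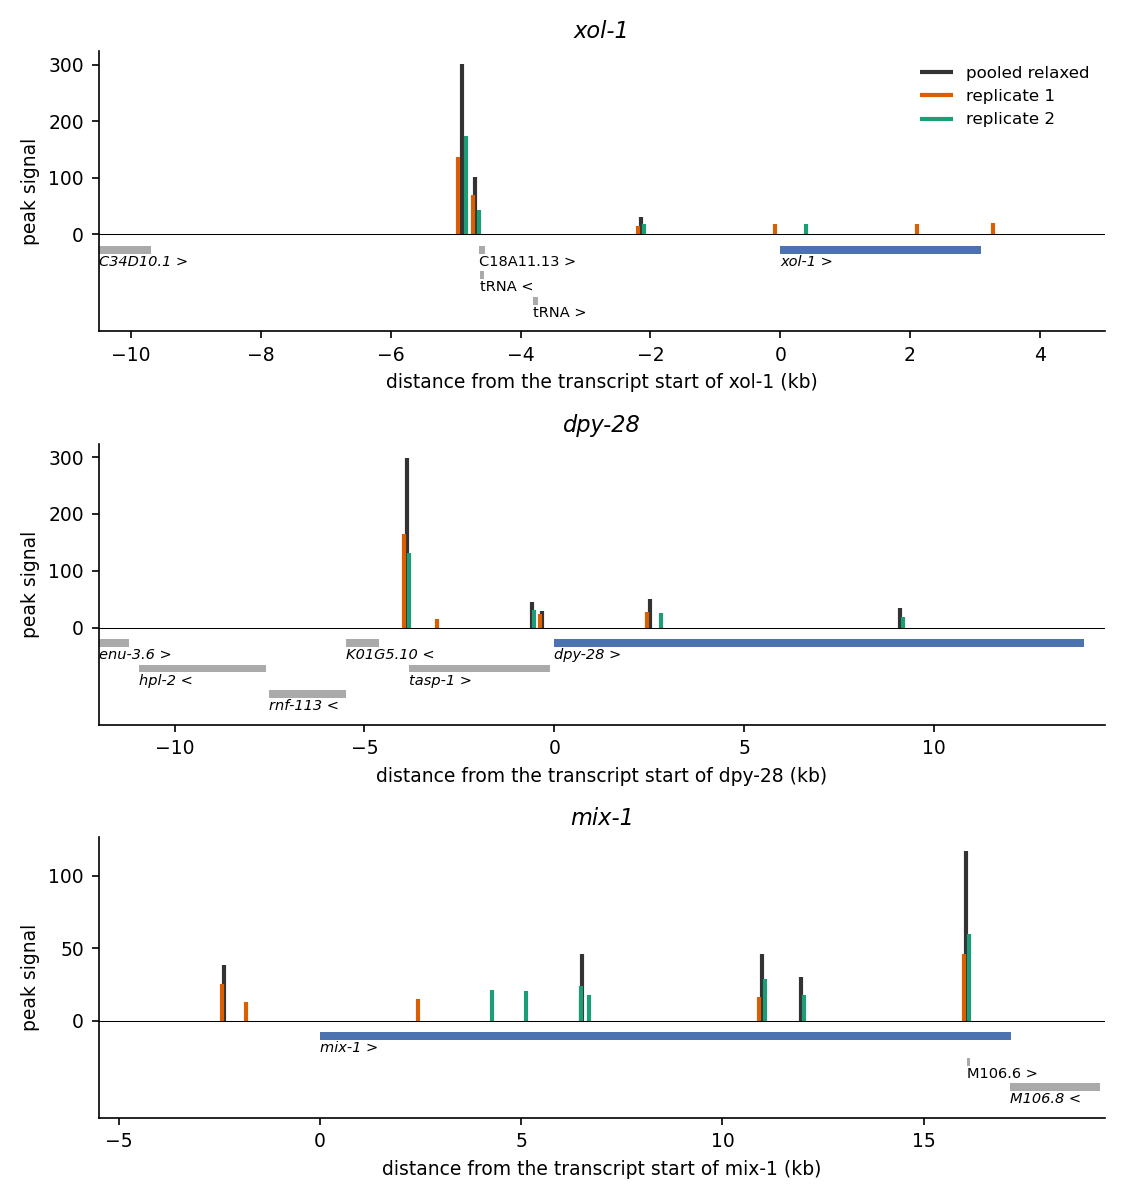
Authors' peak signal around xol-1, dpy-28 and mix-1 by distance from the transcript start of each gene in kb; the 3 colours are the pooled relaxed, replicate 1 and replicate 2 lists, replicate bars are shifted slightly sideways for legibility, and gene boxes with their direction stand below, the named gene in blue. The highest bars stand 4900 bp upstream of xol-1, 3888 bp upstream of dpy-28 at the start of tasp-1, and 16055 bp into mix-1 beside M106.6.

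The first xol-1 summit held the recruitment core as an inverted pair. The pair is visible in the sequence above: CCCTGCGC starts 12 bp before the summit, GCGCAGGG starts 22 bp after it, and 26 bases lie between them. Genome-wide, the core occurred 81 times on X (4.57 per Mb) and 233 times on the autosomes (2.82 per Mb). An inverted pair of exact copies, with at most 50 bp between them, occurred once on X, at this summit. On the autosomes it also occurred once, at no peak of the pooled lists. Copies with a mismatch were not counted. In the sequences above, the X peaks of signal 413 and 362 hold gcgaaggg after their core, which differs from GCGCAGGG in a single letter. No other copy of the core lay in the linking windows of the 10 genes.

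Among all optimal peaks the core was found on X, with 1 autosomal exception in wider windows. The 101 bp window held it in 10 of 122 X-linked optimal peaks (8.2%) and in 0 of 266 autosomal ones. In the pooled relaxed list the counts were 16 of 2158 on X (0.741%) and 1 of 8303 on autosomes (0.012%). With windows reaching 100 bp to either side 12 of 122 X-linked and 1 of 266 autosomal optimal peaks held it. Read from the genome, 11 of the 81 copies on X (13.6%) lay within 50 bp of an optimal summit, against 0 of the 233 autosomal copies, so most copies of these letters on X had no optimal peak.

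The X-linked optimal peaks with the core were mostly strong, although the ranges overlapped. Their median signal was 307 (107 to 413, n = 10), against 107 (82.1 to 377, n = 112) for X-linked optimal peaks without it. Of the 25 strongest X-linked optimal peaks 9 held the core. The xol-1 summit, at 301, lay near the median of the 10.

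**Figure D4:**
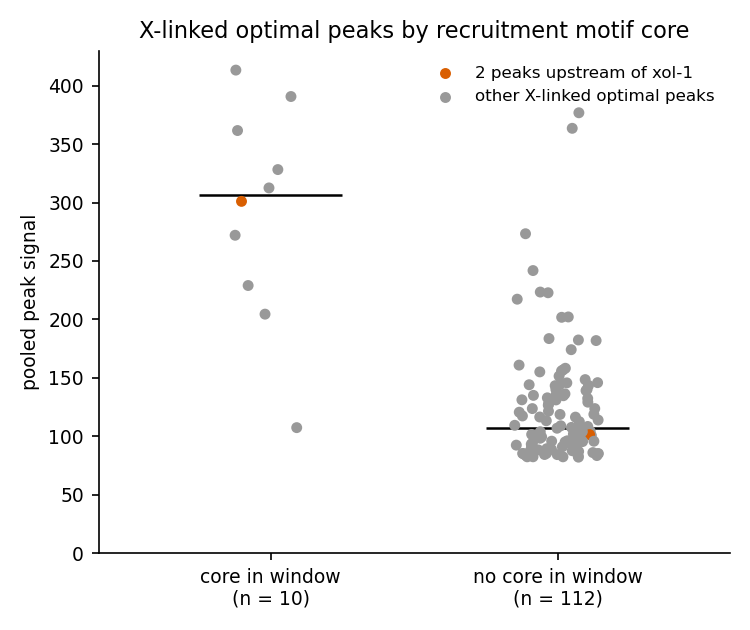
Authors' pooled signal of the 122 X-linked optimal peaks, split by whether the 101 bp window at the summit holds the recruitment core; each point is a peak, horizontal lines are medians, and the sideways spread of points carries no value. The first xol-1 peak, at 301, is among the 10 peaks with the core (median 307), and the second, at 101, is among the 112 without it (median 107).

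The sdc genes, which act just below xol-1, had no optimal peak, like most genes. The shares with one were 6.96% of X-linked and 3.78% of autosomal genes. sdc-1 (WBGene00004745, chrX:16275763-16282534), a zinc finger protein that acts with SDC-2, had its strongest peak 4359 bp upstream, with a pooled signal of 46.6, and 23 and 32.3 in replicates 1 and 2. That summit lay 37 bp from the tRNA gene WBGene00014388, and ifa-3, an intermediate filament gene, has the nearest protein-coding start, 1335 bp away. A second peak in an sdc-1 coding exon had a signal of 30.8 and was found in replicate 1 alone, at 13.5. A replicate 2 peak of 27.9 overlapped it, with its summit over 100 bp away. A linked peak of 46.6 or more was present at 21.5% of X-linked genes.

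sdc-2 (WBGene00004746, chrX:11522707-11533450), the hermaphrodite-specific trigger of complex assembly on X, had 1 pooled peak 1463 bp upstream of its start. The pooled signal was 34.2 and that of replicate 1 was 19.1, and no replicate 2 summit matched it. Replicate 2 had its own peak 537 bp upstream, at 24.5. The replicates thus did not place a peak at the same position, and 43.6% of X-linked genes had a linked peak at least as strong as 34.2. The nearest optimal summit was 49228 bp from the sdc-2 start.

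sdc-3 (WBGene00004747, chrV:15039148-15048207, reverse strand), a zinc finger protein that acts with SDC-2 in recruitment, had no pooled peak. Replicate 1 had a peak 254 bp inside the gene with a signal of 14.8, and replicate 2 one 4511 bp upstream at 19.1. Both were below the median of their lists and lay apart from each other.

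dpy-28 (WBGene00001087, chrIII:10763131-10777076, forward strand), a non-SMC condensin subunit, had the strongest autosomal peak of the set. The peak, at chrIII:10759127-10759352, had a pooled signal of 299, and 165 and 132 in replicates 1 and 2. The summit fell on the same base in all 3 lists and ranked 13th of the nuclear peaks. It lay 3888 bp from the dpy-28 start but 64 bp upstream of tasp-1, the gene that lies just before dpy-28 on the same strand. The same summit was also linked to hpl-2, a heterochromatin protein gene, at 3713 bp, and to rnf-113 and K01G5.10 at 1603 and 721 bp.

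Relative to its list median the dpy-28 peak was higher in replicate 1 (10.2) than in replicate 2 (6.39). Taken as a ratio of these 2 values, the gap was wider than at the first xol-1 peak and narrower than at the second. A linked peak at least as strong was present at 18 of 17242 autosomal genes (0.104%). These include dpy-28 and the other genes linked to this same summit. Inside and just before dpy-28 the peaks were weak. Their pooled signals were 44.6 at 592 bp upstream, 30 at 315 bp upstream, 49.8 at 2528 bp inside and 34.8 at 9119 bp inside. By the 100 bp rule each of these 4 was found in 1 replicate only. Peaks of the other replicate also overlapped those of 44.6, 30 and 49.8, at 24.6, 31.8 and 25. Their summits lay over 100 bp away. The window at the strong summit had 59.4% GC and held none of the motifs searched.

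mix-1 (WBGene00003367, chrII:10824246-10841424, forward strand), an SMC subunit shared by the dosage compensation complex and the mitotic condensins, had an optimal peak inside the gene. The signal reached 117 after pooling, and 45.7 and 59.7 in replicates 1 and 2, or 3.48, 2.82 and 2.88 times the list medians. The replicate ratios were close to each other and well below those of the first xol-1 peak. The summit lay in intron 13 of 14, 16055 bp from the mix-1 start and 16 bp before the snoRNA gene M106.6 in that intron. The window held GGTTCGA, the core of the B box found in genes of RNA polymerase III, as did 4.12% of optimal and 1.42% of pooled relaxed windows.

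M106.8, which lies on the opposite strand at the end of mix-1, was linked to the same summit, its start being 3326 bp away. The other 4 mix-1 peaks had pooled signals of 30.2 to 46.2. Those 6518 and 10987 bp inside the gene were found in both replicates, at 17.5 and 24.2 and at 16.5 and 28.5 in replicates 1 and 2. A linked peak of 117 or more was present at 248 autosomal genes (1.44%), mix-1 and M106.8 included.

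dpy-21 (WBGene00001080, chrV:17936282-17949193, reverse strand), the demethylase that acts on lysine 20 of histone H4, had the strongest peak of the set outside the optimal list. It lay 2271 bp upstream, with a pooled signal of 65.8, and 20.9 and 40.4 in replicates 1 and 2. The nearest protein-coding start was that of Y59A8B.24, 485 bp away. The replicates differed, at 1.29 and 1.95 times their list medians. A second peak in a coding exon 4996 bp inside the gene had a signal of 45.2 and was found in both replicates, at 18.5 and 31.3. Of autosomal genes, 6.14% had a linked peak of 65.8 or more.

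The remaining genes had pooled peaks outside the optimal list, each found in 1 replicate. dpy-26 (WBGene00001085, chrIV:12445801-12451335), a non-SMC condensin subunit, had a pooled peak of 27.3 in a coding exon of smz-1, 4640 bp upstream, matched only in replicate 1, at 26.5. That is 0.815 times the pooled list median and 1.63 times that of replicate 1. dpy-27 (WBGene00001086, chrIII:3813018-3819679), the SMC subunit specific to the complex, had one of 31.9, 693 bp upstream, matched only in replicate 1, at 20. dpy-30 (WBGene00001088, chrV:12191519-12192385), which also serves the MLL/COMPASS histone methyltransferases, had 2 pooled peaks. One of 37.9 lay 3736 bp downstream of the start and was found in replicate 2, at 24.3. The other, of 37, lay in a coding exon of rnp-1 and was found in replicate 1, at 31.1, which is 1.1 times the pooled list median and 1.92 times that of replicate 1. Without a pooled match, replicate 1 also had a peak of 20.8 at 264 bp upstream of the dpy-30 start. Replicate 2 likewise had one of 16.2 at 4772 bp downstream of it. A linked peak at least as strong as the strongest of each gene was present at 54.1% of autosomal genes for dpy-26, 39.3% for dpy-27 and 25.8% for dpy-30.

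**Figure D5:**
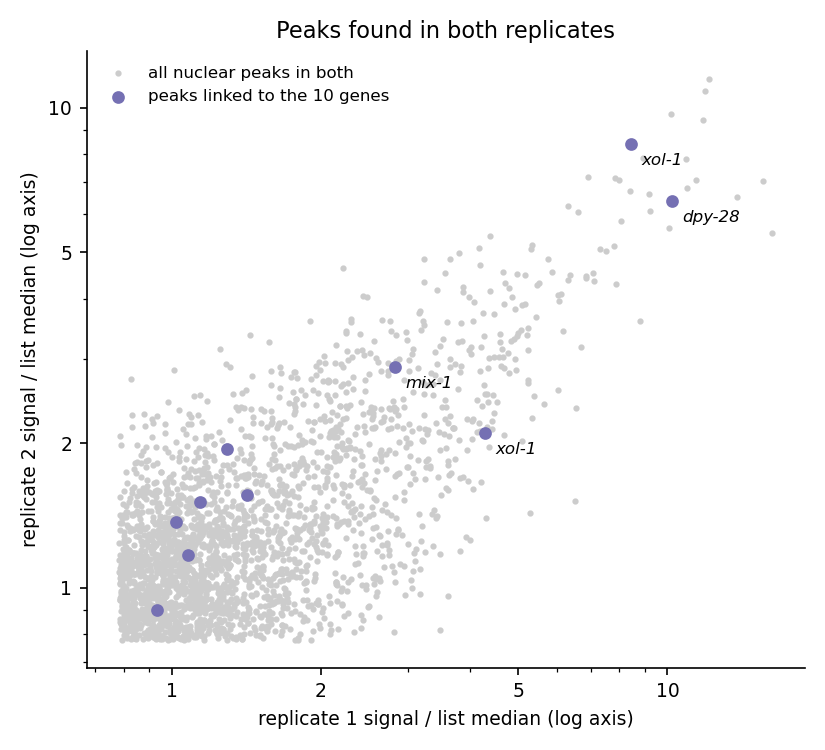
Authors' signal in replicate 1 (x) and replicate 2 (y), each divided by its list median, on log axes, for the nuclear pooled relaxed peaks found in both replicates (grey) and the 10 of them linked to the 10 genes (purple; optimal peaks are named, xol-1 with both of its own). The first xol-1 peak lies at 8.43 and 8.4, dpy-28 at 10.2 and 6.39, the second xol-1 peak at 4.29 and 2.1, mix-1 at 2.82 and 2.88, and the peaks without a name are in the dense cloud.

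The other sequence features searched at the 24 summits are given beside their shares over all peaks. The 24 summits come from the pooled relaxed list, so its shares are the closer comparison. Both strands of the 101 bp windows were read for GAGAGA, for TGATAC, a core of sine oculis family sites, and for TAATTA, a core of many homeodomain sites. GAGAGA was present at 3 of 24 summits (sdc-1, dpy-21 and dpy-27), and at 28.1% of optimal and 9.89% of pooled relaxed peaks. TGATAC was present at 1 of 24 (sdc-2), and at 3.09% of optimal and 2.85% of pooled relaxed peaks. TAATTA was present at 0 of 24, and at 1.55% of optimal and 6.35% of pooled relaxed peaks. GC content at the optimal summits of the set spanned 28.7% at the second xol-1 summit to 59.4% at dpy-28, around the optimal median of 50.5%. A summit within 100 bp of a tRNA, snoRNA or snRNA gene occurred at 3 of 24 (xol-1, sdc-1 and mix-1), and at 21.9% of optimal and 3.63% of pooled relaxed peaks. The part of these small RNA genes in the peaks was not tested.

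Genes around the same pathway were, like most genes of the genome, mostly without an optimal peak. Of 35 listed genes 33 matched the annotation, and of these 2 had an optimal peak and 24 a pooled relaxed peak, beside 4.22% and 56.5% of all genes. Both optimal peaks belonged to MLL/COMPASS genes, which share DPY-30 with the complex. set-16, a histone H3 lysine 4 methyltransferase gene, had a peak of 196 at 183 bp upstream, with 103 and 92.9 in replicates 1 and 2, and the drr-2 start lay 163 bp from that summit. ash-2, a core subunit, had a peak of 97.1, with 53.3 and 44.2 in replicates 1 and 2. That summit lay in an intron, 66 bp upstream of the nearest ash-2 transcript start. With these, 2 of 7 MLL/COMPASS genes were linked, and 6 of 7 had a relaxed peak.

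None of the 3 matched X signal elements, which repress xol-1 in hermaphrodites, had an optimal peak, beside 6.96% of X-linked genes. The strongest relaxed peak among them was at fox-1, an RNA-binding protein gene, with a signal of 68.4 at 4427 bp upstream and 29.7 and 37.7 in replicates 1 and 2. Of the 2 matched autosomal signal elements, which promote xol-1 activity, sea-2 had a relaxed peak of 47.6. It was matched in replicate 1 alone, at 39.5. None of the 14 sex determination genes downstream, all autosomal, had an optimal peak, and 10 had a relaxed one. The shares over all autosomal genes were 3.78% and 55.2%, and the counts were not tested against them. Among them tra-1, the terminal regulator of the pathway, had the strongest, 72.9 at 9452 bp inside the gene, with 40.8 and 33 in replicates 1 and 2. Of the 5 other condensin genes, all autosomal, 4 had a relaxed peak, the strongest 36.4 at capg-1. Of 2 H4K20 methyltransferase genes set-1 had one of 32.4. Neither the capg-1 nor the set-1 peak was matched by a summit in either replicate.

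By signal in both replicates, the genes most like xol-1 shared a peak that lacked the recruitment core. Among 764 genes whose strongest optimal peak was found in both replicates, the smallest distance in log2 signal from xol-1 was 0.13. It was reached by egg-5, R12E2.11, mrps-6 and rpn-8 through 1 autosomal peak with a signal of 305, and 145 and 163 in replicates 1 and 2. The nearest peak on X, linked to gtr-1 and F25E2.2, had a signal of 272, with 127 and 148 in replicates 1 and 2, a distance of 0.26 and 1 copy of the core.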

How the data were processed

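CEH-32 binding was measured by ChIP-seq in 2 biological replicates of 1 group. The peak lists on build ce11 were deposited by the authors, with a signal and a −log10 q-value per peak. Per the file descriptions the lists were derived from alignments and a control. Which aligner, peak caller and thresholds made them is not given in the sources used here. Both the optimal and the pooled relaxed list combine the replicates, and a relaxed list exists for each replicate. Lists on an older build were not used.

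Genes and biotypes came from the Ensembl release 115 annotation of WBcel235 and sequences from the RefSeq genome of the same assembly, and no peak lay beyond its chromosome ends. Peaks on the mitochondrial genome were left out of nuclear counts. A summit in a gene or within 5 kb of a transcript start linked a peak to that gene, so 1 peak can link to several genes. Named genes were the 10 genes, each pathway gene with an optimal peak, the gene with the strongest relaxed peak of each pathway list, the 4 genes nearest to xol-1 in log2 signal of both replicates, and the genes between xol-1 and its peak. Neighbours of other peaks, gtr-1 and F25E2.2 fall outside this rule and were chosen once values were known. The genes, lists and motifs were chosen with earlier results of these data known, and no test was run. Linking was tested on simulated data. Python 3.11.15, numpy 2.4.6, pandas 2.3.3 and matplotlib 3.10.9 were used. Alternatives were other distances, nearest-start linking, peak overlap, shorter lists, single replicates and wider windows.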

Additional observations from a re-analysis of the deposited data

How the results depend on the processing

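The count of the 10 genes with an optimal peak, 3, depends on the linking rule. In the gene or within 1 kb or 2 kb of a start it was 1 (mix-1, through its intron), against 1.79% and 2.32% of all genes, with 0 X-linked and 1 autosomal gene. When a peak was linked only to the nearest protein-coding start it was 1 (xol-1), against 1.7% of all genes, with 0 autosomal genes, and with the nearest start of any gene, a rule chosen after seeing the data, it was 0. The pooled relaxed count of 9 fell to 5 within 1 kb and to 5 with the nearest protein-coding start, and the replicate 2 count of 9 to 5 with that nearest-start rule. No shares over all genes are given for the relaxed lists under these rules, so the falls only describe the 10 genes. The pathway count of 2 fell to 1 (ash-2) with the nearest protein-coding start, beside 1.7% of all genes. The other 34 of 47 alternative counts stayed within 1.5 times the main count, among them those from either replicate alone (3 genes each). For those single-replicate counts no share over all genes is given. At the dpy-26 summit replicate 1 alone gave 1.63 times its list median, against 0.815 in the pooled list, at the dpy-30 summit in rnp-1 it gave 1.92, against 1.1, and at the dpy-21 summit 1.29, against 1.96. No paired analysis was possible because there is 1 group and no test. Read depth and the control limit every signal in ways that the lists do not show.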
